A study of Homo sapiens with 6 samples.

Results

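Semaphorins, plexins and neuropilins were followed in Rh30 cells, an alveolar rhabdomyosarcoma line positive for the PAX3-FOXO1 fusion, with and without knock-down of the DEAD-box RNA helicase DDX5. The members were the protein-coding genes whose symbol is SEMA followed by a digit or begins with PLXNA, PLXNB, PLXNC or PLXND, together with NRP1 and NRP2. The rule used gene names and no measured value, and it found 31 genes (20 semaphorins, 9 plexins and 2 neuropilins) among 35580 genes with a transcript in the tables. Polyadenylated RNA was sequenced from 3 control and 3 siDDX5 libraries, which the series calls biological replicates. Both groups are the same line and carry the same fusion. The labels describe the reference cells only as control and name neither the agent they received nor the time after transfection, so the data speak for a single line under a single knock-down.

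Semaphorins are secreted or membrane-bound guidance cues. Most bind plexins, receptors whose cytoplasmic part acts on RAP and RAS family GTPases. Secreted class 3 semaphorins usually need a neuropilin as the ligand-binding partner of an A-type plexin. Beyond the nervous system the same cues act in muscle, vessels and tumours, where they change adhesion, migration and the actin cytoskeleton.

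For 3 of the 4 genes whose change the results turn on, a window of the promoter could be read from RefSeq (GRCh38.p14). They are the plexins that were lower in siDDX5 libraries once replicate number was taken into account, and each is shown as 30 bases around a GC box, the letters GGGCGG that SP-family factors are known to bind, here in capitals and read 5′ to 3′ on the gene's strand. Where a promoter held more than 1, the box nearest the start on the gene's strand is shown: PLXNA2 also had boxes at −80 and −113 from the start, and PLXNA3 one at −60 on the other strand. The PLXNA2 box shown lies at chr1:208244414-208244443 on the minus strand, the PLXNA3 box at chrX:154458084-154458113 on the plus strand, and the PLXNB2 box at chr22:50301678-50301707 on the minus strand. None of the 3 windows lies in an annotated exon.
PLXNA2: cggccccagcccGGGCGGacgcggccggcg
PLXNA3: ggtcggctggccGGGCGGgtcccccttcag
PLXNB2: gaagggggctgtGGGCGGgggctggtcttg

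Counted from the transcription start, the 6 capitals begin at −47 in PLXNA2, at −185 in PLXNA3 and at −26 in PLXNB2. In windows from 250 bases before to 50 bases after a start, GGGCGG on either strand was present in 44.9% of all 34796 promoters. It was present in 31 of the 48 windows of the members, which covered 27 genes. Counted by gene, where any window is enough, it was in 8 of the 9 plexins, over 11 windows. By the same count it was in 15 of 17 semaphorins and in 24 of all 27 member genes with a window. The share by gene over all promoters was not counted. The E-box CAGCTG, which reads the same on both strands and is a form bound by myogenic factors such as MYOD1, was in 17.9% of all windows and in 11 of the 48. The members' windows were richer in G and C than all windows, with a median of 65.0% against 58.7%. SEMA3A, SEMA6A, SEMA6B and NRP1 were not matched in the promoter table.

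The label check came first. DDX5 stood at 1352, 1434 and 1137 CPM (TMM-normalised counts scaled to a common library total) in control libraries 1 to 3 and at 549, 505 and 396 CPM in the siDDX5 libraries. Its log2 fold change was −1.44 ± 0.15 (SE), and the quasi-likelihood test of edgeR gave a p of 0.0106 after Benjamini-Hochberg adjustment over all genes. Totals ran from 18202402 to 26156858 estimated counts, and all 3 siDDX5 libraries were shallower than the 3 control libraries. The muscle-lineage genes of the line were present (MYOD1 at 110 to 163 TPM, the authors' measure of transcript abundance scaled for length, and DES at 401 to 589 TPM). Summed markers of other cell types were low: 0.737 to 1.42 TPM over 4 epithelial genes, with KRT19 at 0 in all libraries, 4.43 to 7.2 TPM over 4 endothelial genes, of which PECAM1 held 3.97 to 6.88 TPM, 1.38 to 4.36 TPM over 4 blood genes and 5.95 to 17.3 TPM over 4 neural genes. The first principal component, with 31.4% of the variance, placed both replicate 3 libraries apart, at 26.7 for the control and 27.4 for siDDX5, against −24.7 to −2.9 for the other 4 libraries. Results that rest on the replicate 3 libraries are therefore given with and without them.

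Rh30 cells expressed a broad set of guidance genes. The most abundant, as the mean TPM over the 6 libraries, were SEMA3C at 129 TPM, PLXNB2 at 114, PLXND1 at 94.1, SEMA3A at 81.0, PLXNA1 at 44.4 and NRP1 at 39.6 TPM. RNA of class 3 ligands, of A-type plexins and of NRP1 was thus present in 1 line. Protein and receptor complexes were not measured. At the other end were SEMA5A, SEMA5B, SEMA3F, SEMA3G and SEMA6D, each under 1 TPM on average. SEMA3F, SEMA3G and SEMA6D did not pass the filter on low counts: no library held more than 9 counts of any of them, SEMA3F had at most 3, and SEMA6D was listed at 0 in control 3. These 3 were not tested, which leaves 28 tested members.

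**Figure D1:**
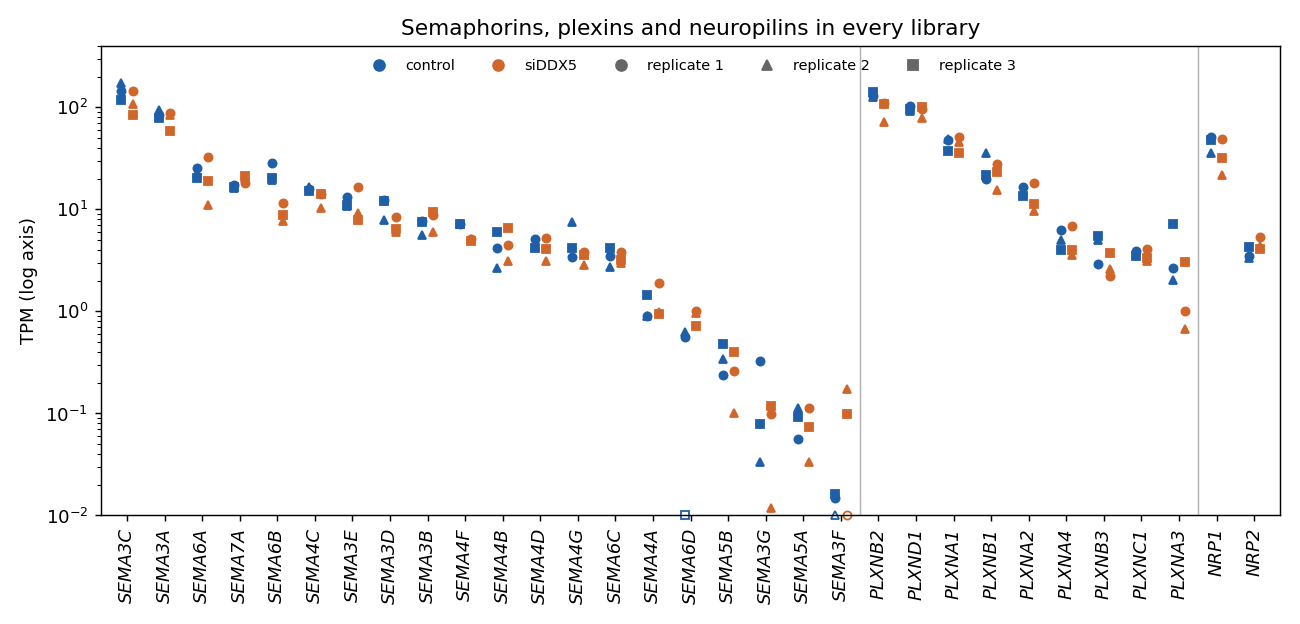
TPM (log axis) of the 31 genes in each library, ordered within semaphorins, plexins and neuropilins by their mean. Blue points are control and orange points siDDX5, marker shapes give the replicate number, and open symbols on the lower edge are values listed at 0. SEMA3C and PLXNB2 lead their groups, and the orange points lie below all blue ones in SEMA6B, SEMA4F, SEMA4C and PLXNB2.

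Of the 28 tested members, 1 was called lower in siDDX5 and none higher, at an adjusted p under 0.05. Over all genes the same rule called 25 of 15223, or 0.164%. With replicate number as a block in the model, 4 members were called, all lower (SEMA6B, PLXNB2, PLXNA2 and PLXNA3), against 394 of all genes, or 2.59%. At an unadjusted p under 0.05 stood 7 of 28 members against 11.4% of all genes. SEMA6B, PLXNB2, SEMA3D, PLXNA2 and SEMA4F were on the lower side and NRP2 and SEMA7A on the higher. In 4 members every siDDX5 library was below every control library (SEMA6B, PLXNB2, PLXNA2 and SEMA4F), which held for 9.16% of all genes. In 2 members, SEMA7A and NRP2, every siDDX5 library was above, which held for 8.86% of all genes. Log2 fold changes were below 0 in 20 of the 28 members (71.4%, against 50.4% of all genes), with a median of −0.16 against 0.00 over all genes. In bulk RNA, fewer cells of a kind and less RNA per cell cannot be told apart.

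**Figure D2:**
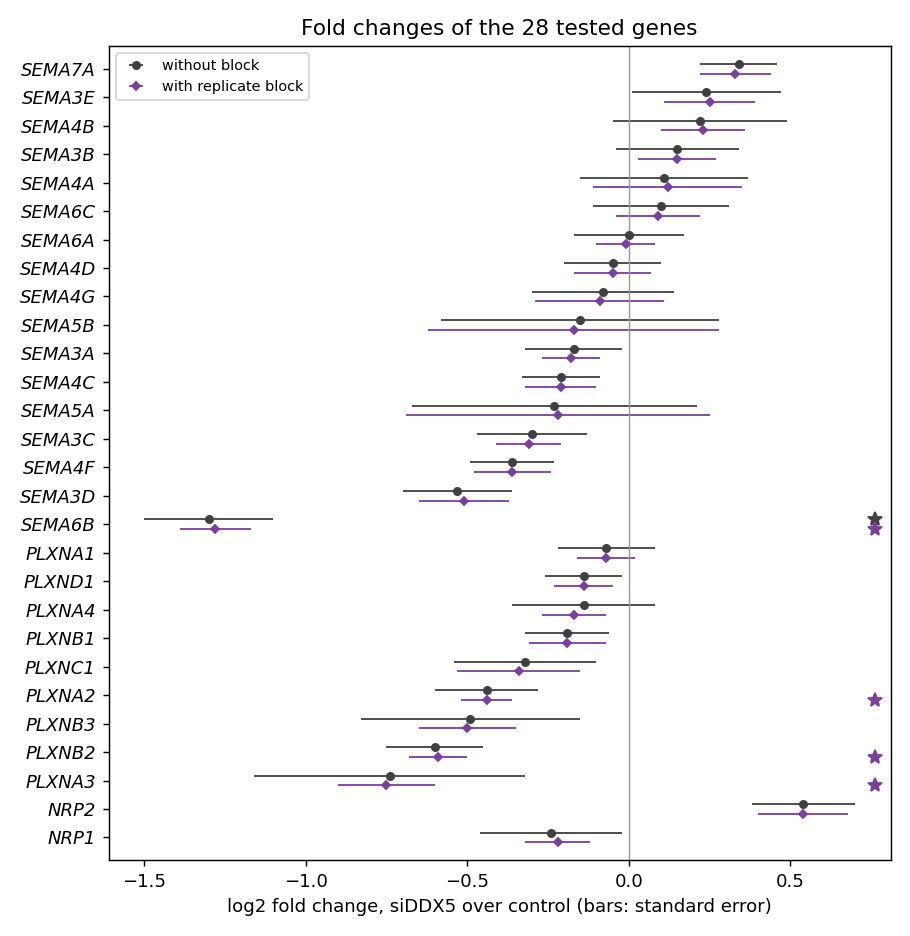
Log2 fold change of siDDX5 over control for the 28 tested genes, with the standard error as bars, from edgeR without (grey circles) and with (purple diamonds) the replicate block. Stars at the right edge mark an adjusted p under 0.05 in the fit of that colour: SEMA6B in both, and PLXNA2, PLXNB2 and PLXNA3 with the block.

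Among the ligands, SEMA6B fell, with the lowest log2 fold change of the 28 tested members. SEMA6B is a transmembrane semaphorin that binds A-type plexins, and its gene (ENSG00000167680.15) lies on chromosome 19 from 4542593 to 4559808 on the minus strand (GRCh38). Control libraries 1 to 3 held 57.8, 36.9 and 37.5 CPM, and siDDX5 libraries held 20.9, 17.2 and 15.6 CPM. The lowest control value was thus above the highest siDDX5 value, and control 1 was the highest library. Means were 44.1 ± 11.9 CPM (SD, n = 3) in control and 17.9 ± 2.73 CPM (SD, n = 3) in siDDX5, a fold of 2.46. The log2 fold change was −1.30 ± 0.20 (SE), which edgeR called at an adjusted p of 0.043. In the blocked fit it was −1.28 ± 0.11 (SE), adjusted p = 0.00205.

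The log2 ratio of siDDX5 to control in libraries of the same number was −1.45, −1.08 and −1.24 for SEMA6B. The call without the block was close to its threshold. Leaving out any 1 library other than control 3 ended it, with adjusted p from 0.0581 to 0.161 in edgeR and log2 fold changes from −1.43 to −1.05. Without both replicate 3 libraries the value was −1.31 (adjusted p = 0.0792 in edgeR). With the block and without them it was −1.29 (adjusted p = 4.64e-09 in edgeR). That p is far below the 0.00205 of the blocked fit with all libraries. So few libraries remained to estimate variability that only the size of the fall is read from that fit, not its p. Both protein-coding transcripts of SEMA6B followed the gene. ENST00000586965.1, the shorter, held 1040, 598 and 662 counts in control and 311, 190 and 200 in siDDX5. ENST00000586582.6 held 446, 198 and 242 counts in control and 112, 125 and 78.6 in siDDX5. Their shares of the gene did not pass the usage test of edgeR (adjusted p = 1.0 for the gene).

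The 2 other class 6 genes that were tested did not follow SEMA6B. SEMA6A, another A-type plexin ligand, held 54.0, 41.7 and 40.1 CPM in control and 56.1, 38.0 and 41.7 CPM in siDDX5, groups that overlapped. Its log2 fold change was 0.00 ± 0.17 (SE) on counts and −0.25 on log2(TPM + 1), and neither passed the test. SEMA6C gave 0.10 ± 0.21 (SE) on counts and −0.02 on log2(TPM + 1), again short of the test. Whether SEMA6B differed from these 2 genes was not tested.

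SEMA3C and SEMA3A, class 3 ligands on chromosome 7, were the most abundant semaphorins. SEMA3C, a secreted cue for NRP1 and NRP2, held 279, 324 and 231 CPM in control and 262, 239 and 175 CPM in siDDX5, overlapping ranges with a log2 fold change of −0.30 ± 0.17 (SE, adjusted p = 0.541 in edgeR). SEMA3A, the classic growth-cone collapsing factor, held 132, 128 and 108 CPM in control and 131, 106 and 88.6 CPM in siDDX5, which also overlapped (−0.17 ± 0.15, adjusted p = 0.713 in edgeR). For SEMA3D, a neuropilin ligand, the 3 control values were 25.7, 17.6 and 26.5 CPM and the siDDX5 values 17.6, 16.1 and 14.7 CPM. Control 2 of SEMA3D lay level with siDDX5 1, and the log2 fold change of −0.53 ± 0.17 (SE) had an unadjusted p of 0.0124 and an adjusted p of 0.294 in edgeR. SEMA3B and SEMA3E gave 0.15 and 0.24, and SEMA3E was −0.11 on log2(TPM + 1).

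Class 4 members are transmembrane ligands that bind mainly B-type plexins. On TPM, though not on counts, SEMA4F was the member with the tightest groups relative to their means. It held 7.23, 7.23 and 7.19 TPM in control and 5.15, 5.10 and 4.86 TPM in siDDX5. On counts it held 21.4, 19.3 and 19.5 CPM against 14.3, 17.2 and 15.4 CPM, and the log2 fold change was −0.36 ± 0.13 (SE, unadjusted p = 0.0207, adjusted p = 0.337 in edgeR). The groups of SEMA4F did not overlap on either scale, yet the call failed the correction over all genes. SEMA4A, SEMA4B, SEMA4C, SEMA4D and SEMA4G ranged from −0.21 (SEMA4C) to 0.22 (SEMA4B) on the log2 scale and none passed the test. SEMA7A, a membrane-anchored semaphorin that binds PLXNC1 and integrins, went the other way: 37.5, 34.4 and 35.1 CPM in control against 39.6, 50.8 and 44.6 CPM in siDDX5. All 3 siDDX5 values of SEMA7A were above the control values, with a log2 fold change of 0.34 ± 0.12 (SE, unadjusted p = 0.0214, adjusted p = 0.341 in edgeR). SEMA5A and SEMA5B were near the depth limit and were not separated, at −0.23 ± 0.44 and −0.15 ± 0.43 (SE).

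**Figure D3:**
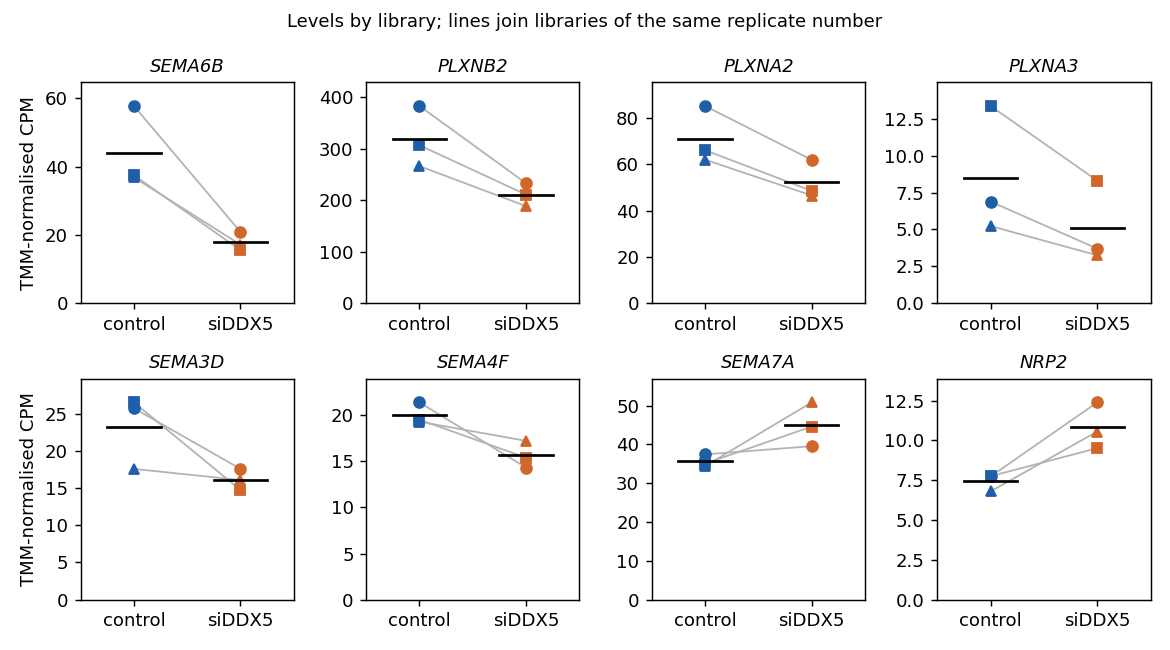
TMM-normalised CPM per library for 8 genes, each panel on its own axis from 0, with blue control and orange siDDX5 points, horizontal bars at the group means and grey lines joining libraries of the same replicate number. All 3 lines fall in SEMA6B, in each of the 3 plexins, in SEMA3D and in SEMA4F, and all 3 rise in SEMA7A and NRP2. In PLXNA3 both replicate 3 points stand above the rest of their group.

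Among the receptors, all 9 plexins had a log2 fold change below 0, from −0.74 (PLXNA3) to −0.07 (PLXNA1), with a median of −0.32. None was called without the block, 2 reached an unadjusted p under 0.05, and 3 were called with the block. Over all genes, 50.4% were below 0, 11.4% reached that unadjusted p and 2.59% were called with the block. The plexins were not tested as a set. PLXNB2, the most abundant plexin and a receptor of class 4 semaphorins that signals through RHOA, held 383, 266 and 307 CPM in control and 233, 189 and 211 CPM in siDDX5. The groups of PLXNB2 did not overlap, and the fold was 1.51. Its log2 fold change was −0.60 ± 0.15 (SE, adjusted p = 0.168 in edgeR), and with the block −0.59 ± 0.09 (SE, adjusted p = 0.0139). The DESeq2 Wald test gave PLXNB2 an adjusted p of 0.0108.

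PLXNA2, a partner of neuropilins and a receptor of class 6 semaphorins, held 85.2, 62.0 and 66.2 CPM in control and 62.0, 46.6 and 48.6 CPM in siDDX5. The highest siDDX5 library lay just under the lowest control library. The log2 fold change of PLXNA2 was −0.44 ± 0.16 (SE, adjusted p = 0.324 in edgeR), and with the block −0.44 ± 0.08 (SE, adjusted p = 0.0263). The ratios by number were −0.46, −0.41 and −0.44. On the TPM scale PLXNA2 groups overlapped, at 16.7, 14.7 and 13.4 TPM against 18.3, 9.74 and 11.4 TPM, and the difference from length-scaled TPM counts was −0.16 (adjusted p = 0.836 in edgeR).

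PLXNA3, an A-type plexin on chromosome X, was low, with 6.88, 5.23 and 13.4 CPM in control and 3.70, 3.25 and 8.31 CPM in siDDX5. Both replicate 3 libraries were the highest of their group, so the groups overlapped while the 3 ratios by number were −0.81, −0.61 and −0.65. Without the block the log2 fold change was −0.74 ± 0.42 (SE, adjusted p = 0.535 in edgeR), and with it −0.75 ± 0.15 (SE, adjusted p = 0.0332). Without both replicate 3 libraries, and so with 4 libraries in the blocked fit, the log2 fold changes were −0.61 for PLXNB2, −0.43 for PLXNA2 and −0.79 for PLXNA3, about as large as with them. None of the 3 was then called (adjusted p of 0.0719, 0.235 and 0.232 in edgeR). With so few libraries, that fit does not show whether a call holds. PLXNB3, also on chromosome X, had the same shape, with 11.4 and 8.53 CPM in the replicate 3 libraries against 4.17 to 6.80 CPM in the others. PLXNB3 shares 412 bases with the neighbour SRPK3 on the same strand. It did not pass the test (−0.49 ± 0.34, SE).

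The remaining plexins were called in neither fit. PLXND1, a receptor of SEMA3E and of vessel patterning, held 112, 86.7 and 95.5 CPM in control and 91.3, 81.6 and 93.1 CPM in siDDX5 (−0.14 ± 0.12, SE). PLXNA1 held 281, 224 and 202 CPM in control and 257, 213 and 201 CPM in siDDX5 (−0.07 ± 0.15, SE), and it was 0.03 from length-scaled TPM counts. Neither difference passed the test, and in both genes the groups overlapped. PLXNB1, the SEMA4D receptor, and PLXNC1, the SEMA7A receptor, gave −0.19 ± 0.13 and −0.32 ± 0.22 (SE). Summed over the 9 genes, plexin RNA was 332, 331 and 330 TPM in control and 316, 230 and 292 TPM in siDDX5. PLXNB2 alone held 130, 125 and 141 TPM of this sum in control and 110, 71.4 and 107 TPM in siDDX5. The semaphorin sum overlapped, at 373, 393 and 327 TPM in control and 369, 284 and 254 TPM in siDDX5.

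The neuropilins, co-receptors of class 3 semaphorins and of VEGF, differed in the sign of their fold change. NRP2 held 7.74, 6.80 and 7.75 CPM in control and 12.4, 10.6 and 9.52 CPM in siDDX5, with no overlap and a fold of 1.46. Its log2 fold change of 0.54 ± 0.16 (SE) had an unadjusted p of 0.00807 and an adjusted p of 0.252 in edgeR, and with the block 0.0746. On TPM the groups of NRP2 did overlap, at 3.46, 3.34 and 4.29 TPM in control and 5.39, 4.37 and 4.07 TPM in siDDX5. NRP1 held 104, 59.8 and 96.3 CPM in control and 91.5, 58.5 and 70.5 CPM in siDDX5, a difference of −0.24 ± 0.22 (SE) that did not pass the test. Whether NRP1 and NRP2 differed from each other was not tested.

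Transcript usage, the share of a gene's counts that each transcript takes, was compared with diffSpliceDGE of edgeR and a Simes test per gene, which called 0 of 23 members, against 1.59% of 10704 genes. An unadjusted p under 0.05 was found for 2 of the 23 members and for 5.37% of all genes. PLXNB2 had an unadjusted p of 0.00151 and an adjusted p of 0.0832 in edgeR. Its most abundant transcript, ENST00000359337.9, took 70.7%, 69.1% and 63.2% of the gene in control and 58.8%, 54.9% and 48.8% in siDDX5. The smaller ENST00000610984.4 took 1.18%, 2.80% and 3.40% in control and 8.90%, 7.73% and 5.69% in siDDX5. Both sets of shares were without overlap, while the gene missed the threshold. By transcript, diffSpliceDGE gave an unadjusted p of 0.204 for ENST00000359337.9 and of 0.000151 for ENST00000610984.4. The gene's p thus rested on the smaller transcript. SEMA3C had an unadjusted p of 0.0153 and an adjusted p of 0.478 in edgeR. Its minor transcript ENST00000419255.6 held 248, 39.2 and 45.3 counts in control and 22.9, 0 and 0 in siDDX5, and the main transcript ENST00000265361.8 held 94.7% to 98.2% of the gene in every library. In PLXNA2, PLXNA3, PLXNA1 and SEMA3D the main transcript took 88.9% or more in every library. The leading transcript took 74.4% to 84.3% of SEMA3A, 66.8% to 75.7% of SEMA6A and 53.5% to 64.0% of NRP1. Other genes were more divided: the leading transcript took 39.0% to 53.0% of PLXND1, 43.8% to 52.6% of NRP2, 47.0% to 62.7% of SEMA7A and 44.2% to 69.9% of SEMA4F.

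The list of pathway partners was written with earlier results of these data known. Its 59 genes are co-receptors, GTPases and their regulators, kinases, cytoskeletal effectors, other receptors and proteases. Of these, 50 were tested and 0 were called by edgeR without the block, with 7 (14.0%) at an unadjusted p under 0.05, near the 11.4% of all genes. DESeq2 called 3 of them, against 2.99% of the genes to which it gave an adjusted p. With the block 4 were called, against 2.59% of all genes. FARP1, a plexin-binding exchange factor for RAC, held 109, 85.2 and 88.4 CPM in control and 73.7, 64.1 and 61.6 CPM in siDDX5 (−0.51 ± 0.13, SE; adjusted p = 0.183 in edgeR, 0.0175 with the block). ARHGEF11, an exchange factor that binds B-type plexins, held 51.3, 49.0 and 49.4 CPM in control and 42.0, 31.5 and 32.3 CPM in siDDX5 (adjusted p = 0.2 in edgeR, 0.0362 with the block). Both were lower in every siDDX5 library.

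PGF, a growth factor that binds neuropilins, and ADAM17, a shedding protease, were the 2 called higher with the block. PGF held 49.0, 49.7 and 35.6 CPM in control and 59.8, 81.8 and 52.6 CPM in siDDX5 (adjusted p = 0.314 in edgeR, 0.0328 with the block). ADAM17 held 50.6, 50.6 and 61.2 CPM in control and 69.7, 72.4 and 76.4 CPM in siDDX5 (0.43 ± 0.11, SE; adjusted p = 0.201 in edgeR, 0.0351 with the block). The other genes at an unadjusted p under 0.05 were RHOA and ARHGAP35 on the lower side and CDC42 on the higher, and none passed the correction. RHOA, the GTPase downstream of B-type plexins, held 490, 411 and 462 CPM in control and 320, 386 and 344 CPM in siDDX5, without overlap. Without both replicate 3 libraries the fit with the block gave −0.49 for FARP1, −0.46 for ARHGEF11, 0.50 for PGF and 0.49 for ADAM17. These were close to the values with all libraries, and none was called on the 4 libraries (adjusted p from 0.103 to 0.22 in edgeR). A fit on so few libraries does not show whether a call holds.

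**Figure D4:**
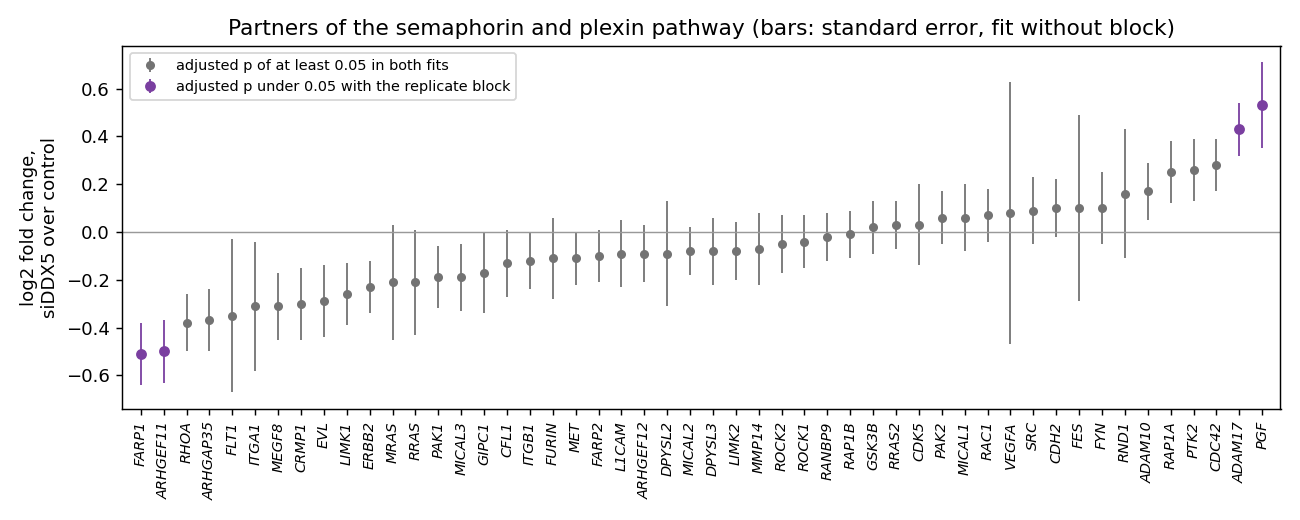
Log2 fold change of siDDX5 over control for the 50 tested partner genes, ordered by size, with the standard error as bars from the edgeR fit without the block. The 4 purple genes (FARP1, ARHGEF11, ADAM17 and PGF) had an adjusted p under 0.05 with the replicate block, and none had one without it.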

How the data were processed

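RNA of 6 Rh30 libraries (3 control, 3 siDDX5) was analysed from one table per library. Per the submitters' processing notes these were made with bcl2fastq 2.20, FastQC 0.11.8, cutadapt 1.11 and kallisto 0.46.0 (GRCh38). The authors deposited an estimated count and a TPM value per transcript. Per the labels, libraries were stranded. Transcripts were joined to genes with GENCODE release 29 (90.0% by identifier, 8.12% by symbol, 0.47% by position), and 1.45% were left out. Estimated counts were summed per gene, rounded, filtered with filterByExpr, scaled by TMM and tested with edgeR 4.0.16 in R 4.3.3 for all genes, with group as the only term. Genes were called at an adjusted p under 0.05. The steps were tested on simulated data in which all genes had the same variability, a check of the code and not of these calls. The alternatives used limma 3.58.1 and DESeq2 1.42.0. The titles number the replicates, without saying whether libraries of one number were made together. Deviations from the group means correlated at 0.21, 0.27 and 0.58 for numbers 1, 2 and 3 over 15223 genes, so the block was also fitted. A count of 3 equals 0.117 to 0.165 CPM. Members, lists and named genes (called with or without the block, unadjusted p under 0.05, or the 3 highest TPM in each family) were chosen with earlier results of these data known. SD is between libraries and covers no uncertainty in dividing reads among transcripts.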

Additional observations from a re-analysis of the deposited data

How the results depend on the processing

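The fall of SEMA6B stayed below 0 in all 20 alternatives, from −1.43 to −1.05 on the log2 scale. The number of members called was 2 by the DESeq2 Wald test, 4 with the replicate block, and 0 for length-scaled TPM counts, all 3 limma-trend settings on TPM, and the join by identifier alone (SEMA6B at an adjusted p of 0.051). At an unadjusted p under 0.05 these settings held 6, 4, 4, 3 and 7 members. Leaving out 1 library, or both replicate 3 libraries, gave 0 to 1 members. The block without the pair of number 1, 2 or 3 gave 6, 7 and 1. All genes called numbered 323 by DESeq2, 136 without a filter, 2 with length-scaled TPM counts, 1, 1 and 2 by limma-trend, 394 with the block and 0 to 15 over the edgeR fits without libraries (0 without control 1 and 0 without siDDX5 1, where 1245 and 2042 genes reached 0.05 before adjustment). The block without pair 1, 2 or 3 called 954, 1241 and 211 genes. With a pair left out, few libraries remained in the blocked fit to estimate variability. The numbers of genes, members and partners called in these fits therefore do not show whether a call holds. Partners called numbered 3 by DESeq2, 4 with the block, and 5, 10 and 0 with the block and without pair 1, 2 or 3. DDX5 lost its call at −1.37 with length-scaled TPM counts (adjusted p = 0.0757) and at −1.44 in all 3 limma-trend settings (adjusted p = 0.0849, 0.0927 and 0.272), and ranged from −1.54 to −1.30 over the fits without libraries.

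Usage was called in 41 genes at a mean of 50 counts, in 382 without the filter, and in 219 to 453 genes without 1 library, and in 0 to 2 members (SEMA3C and SEMA4B without siDDX5 1, NRP1 without siDDX5 2). With the block, usage was called in 129 genes, against 170 without it, and in 0 members. The block changed no call of a member or partner beyond those named. Directions that turned were those of small differences. PLXNA1 was 0.03 with length-scaled TPM counts. SEMA3E was −0.03 there and −0.11, −0.13 and −0.11 by limma-trend. SEMA6A was 0.00 without a filter, −0.12 with length-scaled TPM counts, −0.25, −0.26 and −0.25 by limma-trend and −0.01 with the block. SEMA6C was −0.02 in all 3 limma-trend settings. Without libraries the ranges were −0.18 to 0.08 for PLXNA1, −0.44 to 0.03 for PLXNA4, −0.01 to 0.44 for SEMA4B, −0.13 to 0.05 for SEMA4D, −0.20 to 0.06 for SEMA4G, −0.62 to 0.09 for SEMA5A, −0.68 to 0.18 for SEMA5B, −0.18 to 0.15 for SEMA6A and −0.07 to 0.25 for SEMA6C. With the block and without pair 2, SEMA4D was 0.02, SEMA4G 0.12, SEMA5A 0.32 and SEMA5B 0.37, and SEMA6A was −0.04 without pair 1 or pair 3. The cause was not tested. Fits without both replicate 3 libraries, and with the block without a pair, were chosen after the data were seen. Depth left SEMA3F, SEMA3G and SEMA6D untested, with at most 9 counts in any library.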
